A study of Mus musculus with 58 samples.

Results

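The genes described here are 33 mouse genes of the ATF4 program and of amino acid and one-carbon metabolism, taken from a fixed list of symbols. All 33 were found among the 24028 gene identifiers of the count tables, and all 33 passed the filter on low counts, which kept 14384 genes. They comprise Atf4 and the stress regulators Atf5, Ddit3, Trib3 and Chac1 (5 genes), enzymes of asparagine and serine synthesis (4), folate one-carbon enzymes (5), branched-chain and cysteine enzymes (4), aspartate, alanine and proline enzymes (5), and amino acid transporters (10). They were measured by RNA-seq in 58 libraries of mouse CD4+ T cells, with total exonic counts of 19.2 to 20.8 M per library.

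The cells came from 3 genotypes. Wild-type (WT) cells have no Cre named in the series' design text. Knockout (KO, T1792 delta/delta) cells had both floxed copies of the microRNA cluster miR-17∼92 deleted by a Cd4-driven Cre, and transgenic (TG, T1792 tg/tg) cells had a stop cassette removed by the same Cre, so that a CAG-driven miR-17∼92 transgene in Rosa26 was expressed. KO and TG cells therefore both carry Cre, and Cre and the change in the cluster cannot be told apart against WT. Cells of each genotype were sampled naive and at 24 h and 48 h of stimulation. The coating antibodies were anti-CD3, at 0.25 µg/ml for the very weak stimulus or 0.5 µg/ml for the weak one, together with 0.2 µg/ml of anti-CD28, and the medium held 50 U/ml of IL-2. Each of the 15 groups had 4 libraries, except WT naive and KO naive cells with 3. Cells were purified from lymph nodes and spleens pooled from 10 mice of both sexes, and the labels do not say whether libraries of a group came from separate pools. If they did not, the p-values measure the spread between these libraries only.

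ATF4 is translated when eIF2 is phosphorylated, for example when amino acids run short, and it switches on genes that make, import and recycle amino acids. Activated T cells are known to raise serine synthesis and folate-dependent one-carbon metabolism, which feed nucleotide and glutathione synthesis. Because ATF4 is controlled mainly at translation, its mRNA level need not follow its activity.

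Levels are given in CPM, the counts of a gene relative to the total count of its sample, scaled by TMM, a normalization that sets the bulk of genes equal between samples. For the tests of genotype and time, the very weak and weak library of the same genotype, time and number were summed, which gave 34 samples (10 naive and 24 stimulated) in 9 groups. "Called" means an adjusted p under 0.05 in the quasi-likelihood test of edgeR, adjusted over all 14384 genes. In bulk RNA, fewer cells of a type and less RNA per cell cannot be told apart.

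The targeted cluster was read out by few counts. The row of the miR-17 hairpin (Mir17) had 10, 29 and 28 counts in WT naive, 24 h and 48 h samples, 3, 2 and 0 in KO and 542, 90 and 50 in TG; a count of 0 allows up to 3. The row of the host transcript Mir17hg was at 40.4 ± 15.99 CPM in WT, 111 ± 21.5 CPM in KO and 41.0 ± 11.2 CPM in TG at 48 h, and the parts of it outside the deleted cluster check nothing of the deletion. Genes of other cell types were higher in naive samples than in stimulated ones. The summed level of 8 B cell markers ran from 208 to 400 CPM in WT naive and from 18.9 to 56.4 in WT 48 h samples, that of 10 myeloid markers from 135 to 318 and from 4.28 to 5.84, and that of 5 erythroid markers from 162 to 497 and from 2.19 to 5.84. The part of these cells in the naive levels below was not tested. The 7 T cell markers summed to 4831 to 5453 CPM in WT naive and 3155 to 3539 CPM in WT 48 h samples, none at 0.

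Activation of WT cells raised nearly all of these genes within 24 h. Of the 33, 27 were called higher and 2 lower at 24 h than in naive cells, in a comparison in which 77.4% of all genes were called, 38.3% higher and 39.1% lower. The median log2 difference was 2.23 for the 33 genes and -0.03 for all genes tested. At 48 h against naive cells 30 were higher and 2 lower (78.5% of all genes called, 40.9% higher and 37.6% lower), with a median of 2.28 against 0.06. Together the 33 genes took up 2169 to 2396 CPM in WT naive cells, 6143 to 7001 CPM at 24 h and 5581 to 7176 CPM at 48 h. Of all genes, 77.5% had no overlap between WT naive and 24 h samples, and 75.7% none between naive and 48 h samples.

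**Figure D1:**
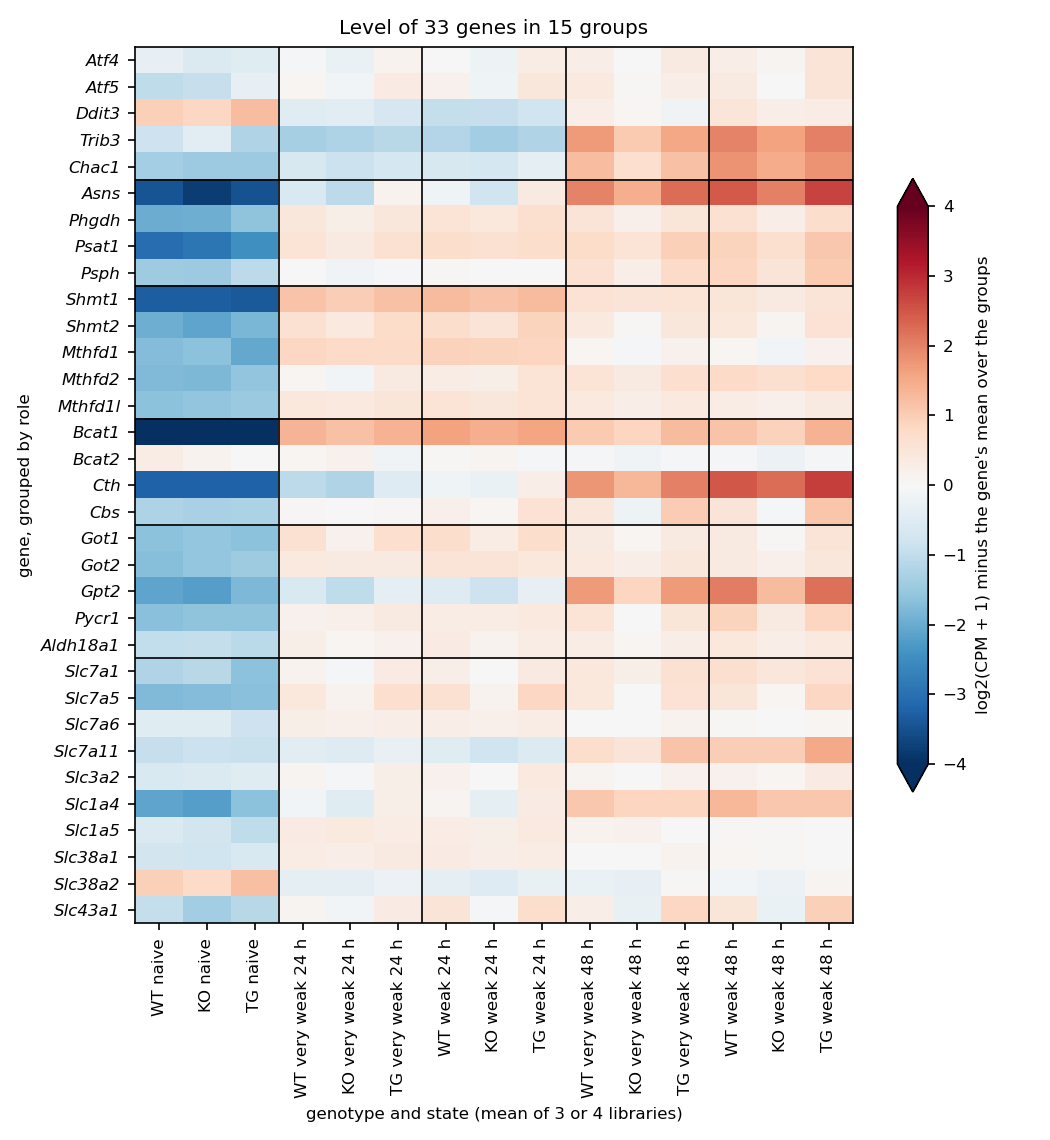
Level of each of the 33 genes (rows, grouped by role) in the 15 groups (columns, genotype and state, mean of 3 or 4 libraries), as log2(CPM + 1) minus the gene's own mean over the groups. Most rows turn from low to high between naive and 24 h, and Trib3, Chac1, Asns, Cth, Gpt2, Slc7a11 and Slc1a4 are highest at 48 h, where WT means of the summed samples run from 2.79 CPM for Slc7a11 to 132 CPM for Asns.

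The factor itself moved little. Atf4 mRNA was at 371, 287 and 288 CPM in the 3 WT naive samples, at 474, 381, 450 and 397 CPM at 24 h and at 617, 463, 437 and 509 CPM at 48 h. The naive samples lay below the stimulated ones, and the 24 h and 48 h samples overlapped. The difference passed the test at 48 h (log2 0.68, SE 0.21, edgeR adjusted p = 0.00396) and not at 24 h (log2 0.43, SE 0.21, edgeR adjusted p = 0.0587). Per kilobase of the length the authors list for each gene, Atf4 was nevertheless the most abundant of the 33 in WT naive cells (182 ± 27.9 CPM per kb, SD, n = 3) and again at 48 h (293 ± 45.8, n = 4); at 24 h the mitochondrial serine hydroxymethyltransferase Shmt2 (261 ± 17.0, n = 4) and Atf4 (246 ± 25.04) did not differ beyond their spread. Atf5, a related factor that is translated under the same control, rose 2.66-fold by 24 h, from 4.16 ± 0.27 to 11.04 ± 1.69 CPM.

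Ddit3, which encodes the stress factor CHOP, went the other way at first. It stood at 31.4, 28.3 and 27.3 CPM in WT naive samples, at 10.3, 5.86, 12.5 and 8.31 CPM at 24 h and at 26.4, 23.4, 9.84 and 21.9 CPM at 48 h. All 24 h samples lay below all naive ones (log2 -1.65, SE 0.34, edgeR adjusted p = 7.35e-05), and 3 of 4 numbers were higher at 48 h than at 24 h (log2 1.14, SE 0.32, edgeR adjusted p = 0.00532). Slc38a2, the system A carrier SNAT2 for small neutral amino acids, also fell, from 498, 388 and 335 CPM in naive samples to 158 to 204 CPM at 24 h and 175 to 251 CPM at 48 h. No stimulated WT sample reached the lowest naive one (24 h: log2 -1.19, SE 0.20, edgeR adjusted p = 3.72e-06). The mitochondrial branched-chain transaminase Bcat2 was the only other member called lower than in naive cells, at 48 h alone, by a log2 difference of -0.26 with overlapping samples. Its call was lost without number 1, 3 or 4 at 48 h or naive number 4.

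Among the genes of asparagine and serine synthesis, all 4 were called higher at both times. Psat1, the phosphoserine transaminase, rose from 32.3, 33.2 and 30.7 CPM in naive cells to 507, 451, 413 and 435 CPM at 24 h (log2 3.82, SE 0.17, edgeR adjusted p = 1.91e-18). Its partners in the serine pathway rose less: Phgdh, the first enzyme, from 37.8 ± 5.79 to 230 ± 22.5 CPM and Psph, the last, from 23.2 ± 0.78 to 68.6 ± 5.54 CPM. Asns, which makes asparagine, went from 1.06, 2.30 and 1.13 CPM to 23.6, 21.4, 20.1 and 19.7 CPM at 24 h.

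All 5 folate one-carbon enzymes were called higher at both times. Shmt1, the cytosolic serine hydroxymethyltransferase, rose 26.9-fold, from 9.96, 10.4 and 10.1 CPM to 316, 261, 261 and 254 CPM (log2 4.75, SE 0.20, edgeR adjusted p = 4.005e-19). Shmt2 rose from 90.7 ± 13.0 to 602 ± 39.1 CPM, the trifunctional folate enzyme Mthfd1 from 69.1 ± 6.87 to 455 ± 33.2 CPM, and the mitochondrial enzymes Mthfd2 and Mthfd1l by 4.26-fold and 4.69-fold. The summed level of the 5 enzymes ran from 270 to 308 CPM in naive cells, from 1760 to 2055 CPM at 24 h and from 1417 to 1619 CPM at 48 h.

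The cytosolic branched-chain transaminase Bcat1 had the steepest well-measured rise. It stood at 1.16, 1.748 and 1.63 CPM in WT naive samples and at 314, 250, 257 and 246 CPM at 24 h, a 176-fold difference (log2 7.45, SE 0.20, edgeR adjusted p = 6.06e-24). Cth, which splits cystathionine to cysteine, had 1 count in the 3 WT naive libraries together and 851 in the 8 WT libraries at 24 h, a ratio of 337 with a 95% counting interval from 60.3 to 13324. Cbs, the enzyme before it, had 3 and 264 counts, a ratio of 34.8 (11.8 to 170), and was at 1.74 ± 0.58 CPM at 24 h. Both intervals cover counting error only.

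The aspartate, alanine and proline enzymes all rose by 24 h. Cytosolic and mitochondrial aspartate transaminases, Got1 and Got2, rose from 41.6 ± 6.20 to 225 ± 19.2 CPM and from 69.2 ± 1.86 to 337 ± 13.2 CPM. Pycr1, the last enzyme of proline synthesis, went from 0.93 ± 0.10 to 6.54 ± 0.19 CPM (log2 2.81, SE 0.42, edgeR adjusted p = 4.38e-07). Aldh18a1, the first one, was already at 83.8 ± 6.34 CPM in naive cells and rose 2.62-fold.

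The 10 transporters rose less than the enzyme groups: their summed level ran from 1217 to 1329 CPM in WT naive cells and from 2127 to 2330 CPM at 24 h. Of the 10, 8 were called higher at 24 h and 1, Slc38a2, lower. Slc7a5, the light chain of the large neutral amino acid carrier LAT1, rose 5.33-fold from 61.5 ± 3.33 CPM, while its heavy chain Slc3a2 rose 1.79-fold from 141 ± 5.29 CPM. The cationic amino acid carrier Slc7a1 rose 2.86-fold, the glutamine carriers Slc1a5 and Slc38a1 rose 1.99-fold and 2.24-fold, and the cystine carrier Slc7a11 stayed below 1.3 CPM in every WT sample at 24 h (edgeR adjusted p = 0.0554).

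From 24 h to 48 h the list split. In WT cells 10 genes were called higher and 6 lower at 48 h than at 24 h, and 41% of all genes were called (21.2% higher, 19.8% lower). The median log2 difference was 0.16 for the 33 genes and 0 for all genes tested. The 8 genes with a log2 difference over 1 were Trib3, Chac1, Cth, Gpt2, Asns, Slc7a11, Slc1a4 and Ddit3. The gene just inside that limit was Ddit3 at 1.14 and the next below it was Psph at 0.71; the limit was set with these values known, so the 8 genes are a description.

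**Figure D2:**
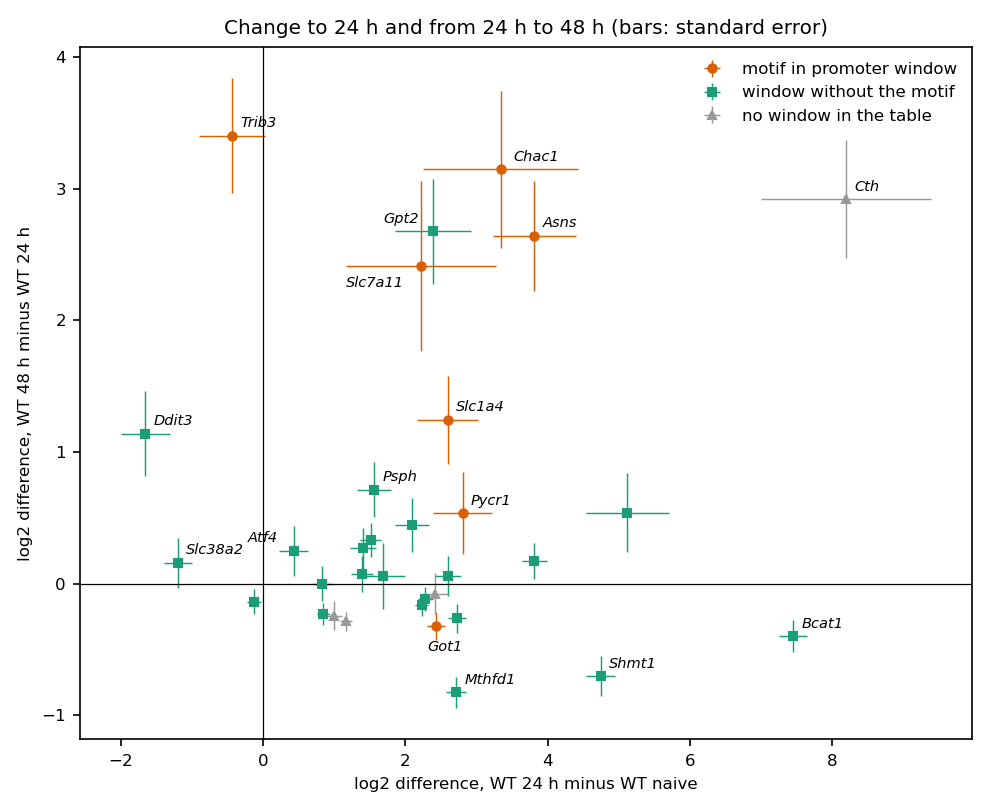
Log2 difference of each gene from WT naive to WT 24 h (horizontal axis) against that from WT 24 h to WT 48 h (vertical axis), with standard errors as bars; marker shape and colour show whether the letters TGATGNAA lie in the promoter window. Trib3, Chac1, Cth, Gpt2, Asns and Slc7a11 lie above 2 on the vertical axis, while Shmt1, Mthfd1 and Bcat1, which rose by 2.72 to 7.45 by 24 h, lie below 0.

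Asns, which had already risen, reached 220, 135, 54.4 and 120 CPM at 48 h in WT numbers 1 to 4, so the lowest 48 h sample was above the highest 24 h sample of 23.6 CPM (log2 2.64, SE 0.42, edgeR adjusted p = 1.16e-05). Trib3, a pseudokinase that ATF4 and CHOP induce and that damps ATF4, was at 3.67, 3.37, 3.93 and 3.39 CPM at 24 h and at 54.5, 44.7, 12.9 and 39.9 CPM at 48 h (log2 3.40, SE 0.43, edgeR adjusted p = 4.70e-07). It had not passed the test between naive and 24 h cells. For both genes number 3 was the low sample at 48 h.

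Chac1, which breaks down glutathione, went from 1.67, 0.50, 0.47 and 0.66 CPM to 9.30, 9.99, 2.27 and 7.72 CPM (log2 3.15, SE 0.60, edgeR adjusted p = 0.000108). Gpt2, the mitochondrial alanine transaminase, went from 4.65 to 4.79 CPM at 24 h to 44.1, 34.3, 12.1 and 30.4 CPM (log2 2.67, SE 0.40, edgeR adjusted p = 5.56e-06). Cth went from 8.65, 7.09, 2.59 and 4.21 CPM to 80.8, 38.3, 18.7 and 32.78 CPM (log2 2.92, SE 0.45, edgeR adjusted p = 7.82e-06). In each of these genes the 24 h and 48 h samples did not overlap, which held for 15 of the 33 genes and for 39.9% of all genes.

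Slc1a4, the neutral amino acid carrier ASCT1, rose again from 14.0 ± 1.72 to 33.3 ± 13.1 CPM (log2 1.24, SE 0.33, edgeR adjusted p = 0.00350). Slc7a11 reached 5.20, 2.60, 1.19 and 2.17 CPM, higher than at 24 h in each of the 4 numbers although the groups overlapped (log2 2.415, SE 0.65, edgeR adjusted p = 0.00349). Psph and Slc7a1 were the other genes called higher, by 0.71 and 0.33 on the log2 scale. The Slc7a1 call was lost without number 2, 3 or 4 at 24 h or number 1 or 4 at 48 h.

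The 6 genes called lower at 48 h than at 24 h had all been called higher at 24 h than in naive cells. Mthfd1 fell from 505, 443, 438 and 436 CPM to 249, 235, 302 and 244 CPM (log2 -0.82, SE 0.12, edgeR adjusted p = 2.35e-06). Shmt1 fell from 254 to 316 CPM to 156, 144, 205 and 166 CPM (log2 -0.70, SE 0.15, edgeR adjusted p = 0.000439), and in both genes every number was lower at 48 h. Bcat1, Got1, Slc38a1 and Slc7a6 were called lower by smaller log2 differences of -0.40, -0.32, -0.28 and -0.23. The calls of Bcat1, Got1 and Slc7a6 were lost without number 1 at 24 h. That of Got1 was also lost without number 3 at 48 h. That of Slc7a6 was also lost without number 2 at 24 h or number 2 or 4 at 48 h. Phgdh, Psat1 and Slc3a2 were nearly level between the times, with log2 differences of 0.06, 0.18 and 0.00.

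**Figure D3:**
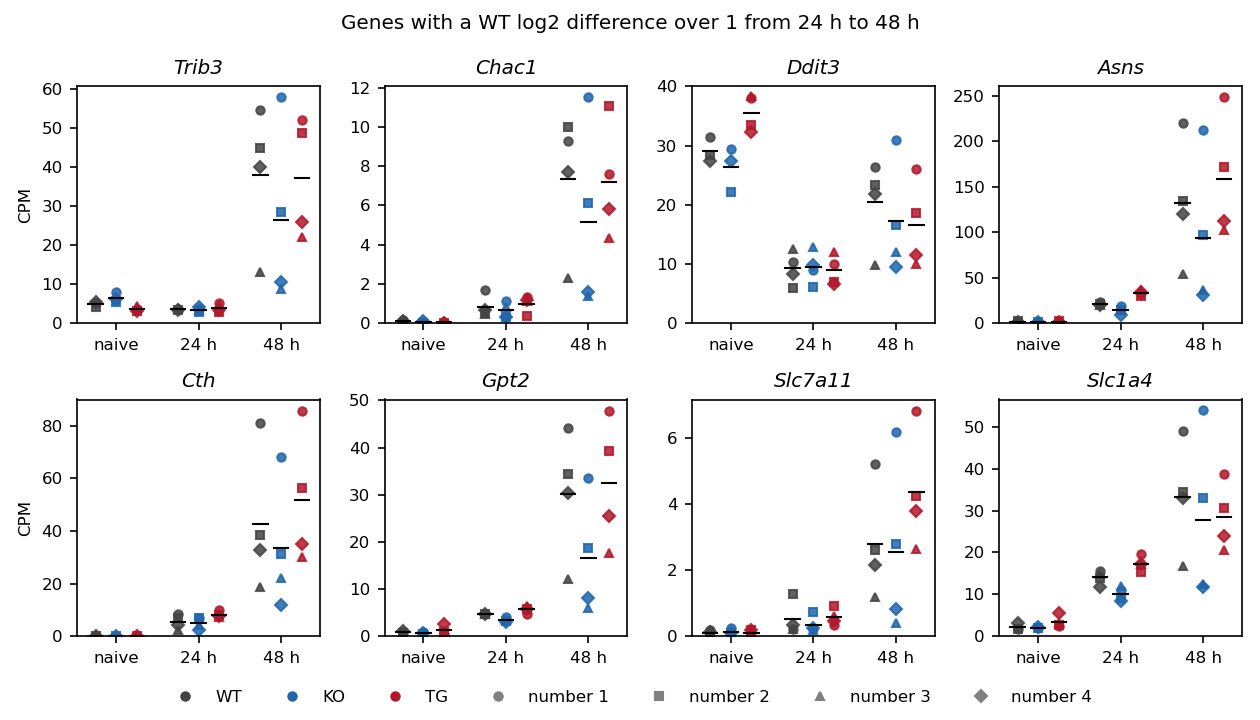
CPM (vertical axes, each from 0) of the 8 genes with a WT log2 difference over 1 from 24 h to 48 h, in naive, 24 h and 48 h samples of WT, KO and TG cells; each symbol is 1 sample, its shape is the replicate number and the bar is the group mean. At 48 h the samples spread widely, with number 3 lowest among the WT samples of all 8 genes and number 1 highest in all but Chac1.

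Number 1 was often the highest sample at both times: of the 33 genes, 24 were highest in number 1 in WT, 22 in KO and 21 in TG at 24 h. At 48 h the counts were 24 in WT, 25 in KO and 17 in TG. For Asns the values of numbers 1 to 4 were 220, 135, 54.4 and 120 CPM in WT, 212, 97.3, 35.9 and 30.9 CPM in KO and 249, 172, 103 and 113 CPM in TG. Number 1 was thus highest in every genotype, and the highest value was 4.05, 6.87 and 2.42 times the lowest. Shmt1 ran the other way, at 156, 144, 205 and 166 CPM in WT, 123, 115, 209 and 180 CPM in KO and 161, 161, 195 and 167 CPM in TG, with number 3 highest in each. The median coefficient of variation at 48 h was 16.4%, 24.98% and 13.7% for the 33 genes in WT, KO and TG, against 13.7%, 17.0% and 12.2% for all genes.

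Across the 48 stimulated libraries, taken as deviations from their group means, some of the 33 genes moved together and others against them, as a description: the mean Pearson correlation was 0.25 over their pairs and 0.011 over all pairs of tested genes, and 38.6% of their pairs were over 0.5. Asns went most closely with Pycr1 (0.96), Psph (0.94) and Slc1a4 (0.94). Shmt1 and Mthfd1 went together (0.94) and against Gpt2 (-0.78 and -0.80). The very weak and weak library of a genotype and number deviated together, so the 48 points are not independent. The labels do not say whether such libraries share their cells' source.

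Promoter sequences are shown for the members that hold the ATF4 and C/EBP composite letters TGATGNAA, so that the letters found can be read beside each gene's values. The windows are RefSeq's on GRCm38.p6, from 250 bases before to 50 bases after the listed start, and both strands were searched. Capitals mark the match, which reads TTNCATCA where it lies on the other strand; each line runs 5′ to 3′ along the gene's strand.
Asns, chr6:7693210-7693258, minus strand: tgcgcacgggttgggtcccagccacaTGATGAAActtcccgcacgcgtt
Chac1, chr2:119351023-119351082, plus strand: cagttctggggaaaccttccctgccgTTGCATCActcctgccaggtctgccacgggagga
Trib3, chr2:152344028-152344057, minus strand: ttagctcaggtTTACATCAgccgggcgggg
Slc7a11, chr3:50443627-50443705, minus strand: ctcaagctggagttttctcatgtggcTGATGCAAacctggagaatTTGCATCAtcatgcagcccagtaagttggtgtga
Slc1a4, chr11:20332699-20332728, minus strand: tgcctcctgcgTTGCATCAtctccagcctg
Pycr1, chr11:120643818-120643877, minus strand: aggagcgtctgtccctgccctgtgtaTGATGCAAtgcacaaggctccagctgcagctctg
Got1, chr19:43524674-43524733, minus strand: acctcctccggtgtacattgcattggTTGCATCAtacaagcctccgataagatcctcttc

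Slc7a11 holds the letters 2 times, in opposite orientation, and its window lies inside the gene's listed span (50364936 to 50499087). Counted from the listed start of each window, the match begins at base 14 in Trib3 and at -4 in Slc1a4. In the other genes shown it begins between -193 and -23. Of the 33 genes 29 had a window, and these 7 of the 29 (24.1%) held a match, against 2.83% of the 11261 tested genes with a window. Of the 8 late genes 7 had a window and 5 of those held a match (Asns, Chac1, Trib3, Slc7a11 and Slc1a4); Gpt2 and Ddit3 did not, and Cth had no window in the table. Of the other 22 genes with a window 2 held one, Pycr1 and Got1. A match describes the letters only, and its absence says nothing of sites elsewhere. The list was made of genes of the ATF4 program and of amino acid and one-carbon metabolism, so its share of matches is no test. The late genes were set apart with their values known, so their share is a description too.

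Intronic counts come largely from unspliced RNA. Of exonic and intronic counts together they made up 22.6% to 30.7% in naive libraries and 12.4% to 18.4% in stimulated ones. Exonic and intronic counts were each scaled by their own totals and TMM factors, which takes this fall out. An intronic change is therefore relative to the bulk of intronic counts. The 8 late genes differed in their intronic changes. Asns rose between naive and 48 h WT cells by 6.42 in exonic and 6.79 in intronic counts on the log2 scale (difference -0.37, SE 1.13, edgeR adjusted p = 0.824), and Gpt2 by 5.03 and 4.95. Slc7a11 rose by 4.56 in exonic counts and differed by 0.70 in intronic ones, where the test was not passed (edgeR adjusted p = 0.480), and Ddit3 differed by -0.55 and -0.36 (edgeR adjusted p = 0.167 in the test of exonic counts alone and 0.306 for the intronic ones). Slc7a11 had only 7 exonic and 31 intronic counts in the WT naive libraries together. Intronic counts exceeded exonic ones in 17.2% of libraries for Slc7a11 and in 10.3% for Ddit3. For 17 of the 33 genes the exonic rise from naive to 48 h exceeded the intronic change, for 1, Slc1a5, it was smaller, and 41.1% of all 12077 genes tested differed (21.6% with a larger exonic change). At 24 h the counts were 15 and 1, against 43.7% of all genes (22.4% with a larger exonic change). Leaving out 1 sample gave 13 to 16 calls at 24 h and 15 to 19 at 48 h, both directions together.

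All 3 serine enzymes had a larger exonic than intronic rise at both times, as had 4 of the 5 folate enzymes at 24 h and 3 at 48 h. Without WT naive number 4 the call was lost for Psph at 24 h (edgeR adjusted p = 0.159). At 48 h it was then lost for Psat1 and Shmt1 (edgeR adjusted p = 0.149 and 0.0512). Mthfd2 did not pass this test at either time (difference 0.26 and 0.71, edgeR adjusted p = 0.559 and 0.0971), nor Shmt2 at 48 h (0.60, edgeR adjusted p = 0.0530). Shmt1 rose by 4.70 in exonic and 3.75 in intronic counts at 24 h (difference 0.95, SE 0.23, edgeR adjusted p = 0.000623), Mthfd1 by 2.67 and 1.60, Phgdh by 2.55 and 1.58, and Psat1 by 3.77 and 2.81. Bcat2 changed by -0.17 in exonic counts and by -1.12 in intronic counts. Got1 changed by 2.39 and -0.13, but its intronic counts exceeded its exonic ones in 13.8% of libraries. The excess was in the naive baseline. Summed over WT naive libraries Got1 had 4909 intronic and 2674 exonic counts, against 2380 and 16621 in WT very weak 24 h libraries. Reads of an overlapping transcript cannot be told apart from its own. In the KO and TG comparisons with WT at 24 h and 48 h, edgeR called none of the 33 genes for such a difference, and at an unadjusted p under 0.05 there were 0 and 1 in KO and 0 and 1 in TG. Of all genes 0.00828% and 0.0248% were called in KO and 0.0166% and 0.0828% in TG.

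KO cells were compared with WT cells to see what loss of the cluster does. In naive cells edgeR and DESeq2 called none of the 33 genes, none had an unadjusted edgeR p under 0.05, and 0.0278% of all genes were called. In stimulated KO cells the differences were small and mostly below 0: the fitted log2 difference was below 0 for 29 of 33 at 24 h and 32 of 33 at 48 h, with median log2 differences of -0.14 and -0.23 against 0.00 and -0.01 for all genes. EdgeR called 1 gene lower at each time (1.51% and 5.81% of all genes called; 0.626% and 2.32% lower).

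At 24 h the called gene was Got1, at 199, 164, 169 and 139 CPM in KO and 248, 205, 231 and 213 CPM in WT (log2 -0.42, SE 0.11, edgeR adjusted p = 0.0367). All 4 KO samples lay below all 4 WT samples, and for 9.32% of all genes the groups did not overlap. The call was lost when KO number 2, 3 or 4 or WT number 1, 3 or 4 was left out, and in the weak libraries alone.

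At 48 h the called gene was Cbs, at 1.60, 1.15, 1.503 and 0.84 CPM in KO and 2.97, 2.18, 2.73 and 2.27 CPM in WT (log2 -0.995, SE 0.31, edgeR adjusted p = 0.04998). The groups did not overlap, which held for 8.80% of all genes. The p lay at the threshold, and the call was lost without KO number 2 or 4 or without any 1 WT sample. Leaving out KO number 1 gave 9 genes. With the replicate number as a block 7 genes were called lower at 48 h, when 14.1% of all genes were called and 6.99% lower: Phgdh, Shmt2, Bcat1, Cbs, Got1, Slc7a5 and Slc43a1. Each of the 7 was lower in KO than in the WT sample of the same number in 4 of 4 numbers, for example Slc43a1, a carrier of large neutral amino acids, at 4.95, 4.15, 4.69 and 4.61 CPM in KO and 9.94, 5.53, 9.23 and 7.23 CPM in WT (blocked log2 -0.78, SE 0.16, edgeR adjusted p = 0.00334). The blocked test itself favours genes that differ alike within each number, so the 4 of 4 is a description and adds no support.

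TG cells were compared with WT cells to see what extra copies of the cluster do. In naive cells 2 genes were called higher and 3 lower, against 8.66% of all genes (4.89% higher, 3.77% lower). Atf5 was at 6.83, 7.09, 6.58 and 8.78 CPM in TG and 4.35, 4.28 and 3.85 CPM in WT naive samples (log2 0.82, SE 0.19, edgeR adjusted p = 0.00540), and Psat1 at 47.0, 52.0, 39.5 and 59.9 against 32.3, 33.2 and 30.7 CPM (log2 0.63, SE 0.155, edgeR adjusted p = 0.00951). For both genes every TG sample lay above every WT sample. The neutral amino acid carrier Slc1a5, the carrier light chain Slc7a6, which exchanges cationic for neutral amino acids, and the transaminase Bcat2 were lower, by -0.44, -0.33 and -0.31 on the log2 scale, also without overlap. Naive TG and WT samples did not overlap for 21.8% of all genes.

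Naive TG number 4 stood apart from the other 3 in several of these genes. Its Atf4 and Slc38a2 levels were 174 and 266 CPM, against 273 to 373 and 449 to 666 CPM in the other 3, and its Shmt2 level was 115 CPM against 94.2 to 94.6. Without it, of the 5 genes called in naive TG cells only Atf5 remained so: Psat1, Slc1a5, Slc7a6 and Bcat2 lost the call (edgeR adjusted p = 0.0509, 0.0747, 0.0765 and 0.125). The same 4 lost it without WT number 4, and Slc7a6 and Bcat2 without WT number 2. Bcat2 also lost it without TG number 1, TG number 2 or WT number 1.

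After stimulation the fitted difference of TG from WT was above 0 for 27 of the 33 genes at 24 h and 26 at 48 h, with median log2 differences of 0.13 and 0.10 against 0.00 and 0.00 for all genes. The KO and TG comparisons share the WT samples. No gene was called by edgeR at 24 h, when 4.71% of all genes were, or at 48 h, when 12.3% were; 0 and 2 had an unadjusted p under 0.05, and DESeq2 called 0 and 1. With the replicate number as a block 4 genes were called higher at 48 h (22.1% of all genes called, 11% higher): Bcat1, Cbs, Slc38a2 and Slc43a1. Cbs was at 4.01, 4.31, 4.77 and 4.05 CPM in TG, all above the WT samples (blocked log2 0.77, SE 0.20, edgeR adjusted p = 0.00914). TG and WT samples did not overlap at 48 h for 17.2% of all genes.

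**Figure D4:**
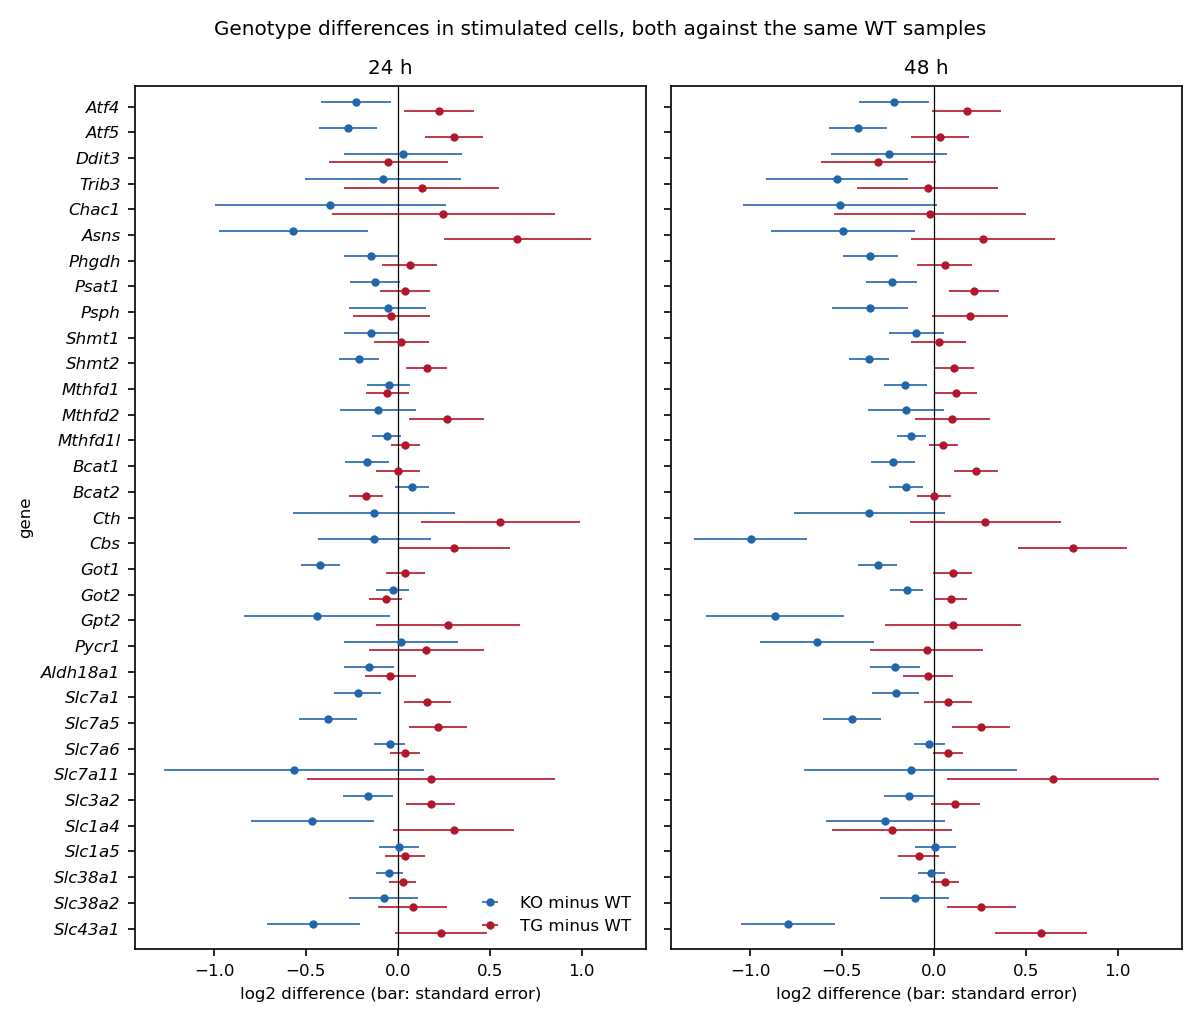
Log2 difference of KO (blue) and TG (red) from the same WT samples for each gene at 24 h (left) and 48 h (right), with the standard error as a bar. Blue points lie below 0 for 29 and 32 of the 33 genes and red points above 0 for 27 and 26, while at 24 h 31 blue and all 33 red points are within 2 standard errors of 0.

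Among the genotype comparisons, the direct one of TG with KO gave the most calls, for the 33 genes as for all genes. TG and KO cells both carry Cre and differ in the cluster. At 24 h 7 genes were higher and 1 lower in TG, in a comparison with 25.9% of all genes called (12.4% higher, 13.5% lower), so the share called, 24.2%, was near that of all genes. At 48 h 12 were higher and none lower, 36.4% against 39.3% of all genes (19.9% higher, 19.5% lower). The median log2 differences were 0.21 and 0.40, against 0 and 0.00 for all genes, and 29 and 31 of the 33 genes were above 0. TG and KO samples did not overlap for 28.5% of all genes at 24 h and 31.0% at 48 h. With the replicate number as a block the counts were 12 higher and 1 lower at 24 h (37.3% of all genes) and 19 higher and none lower at 48 h (51.2%; 26.7% higher).

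Among the biosynthetic enzymes at 24 h, Asns showed the widest gap, at 33.2, 29.3, 36.5 and 34.1 CPM in TG and 18.5, 14.4, 15.5 and 8.83 CPM in KO (log2 1.22, SE 0.41, edgeR adjusted p = 0.0257). Every TG sample was above every KO sample, but the call was lost without KO number 2 or 4 or TG number 1 or 3. At 48 h Asns spread from 103 to 249 CPM in TG and from 30.9 to 212 CPM in KO and did not pass the test without the block (edgeR adjusted p = 0.128; blocked 0.0270), although TG was higher in 4 of 4 numbers. Shmt2 was higher in TG at 24 h (627 to 719 against 456 to 549 CPM, edgeR adjusted p = 0.0127) and at 48 h (497 to 615 against 319 to 506 CPM, with overlap, edgeR adjusted p = 0.00121). Its 24 h call was lost without KO number 4 or TG number 1.

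The largest gap at 48 h was that of Cbs, at 4.29 ± 0.35 CPM in TG and 1.27 ± 0.35 CPM in KO (log2 1.7501, SE 0.31, edgeR adjusted p = 3.82e-05). Slc43a1 followed, at 13.6, 9.13, 12.3 and 12.8 CPM in TG and 4.95, 4.15, 4.69 and 4.61 CPM in KO (log2 1.38, SE 0.26, edgeR adjusted p = 7.70e-05). Neither gene's groups overlapped. Gpt2, Psph, Psat1 and Phgdh were higher in TG by 0.97, 0.54, 0.45 and 0.40 on the log2 scale with overlapping groups, and higher in 4 of 4 numbers each. The calls of Gpt2, Psph and Phgdh were each lost without KO number 2, 3 or 4 or TG number 1 or 2. That of Psat1 was lost without TG number 1.

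Bcat1 was at 242, 241, 252 and 213 CPM in TG and 209, 152, 182 and 150 CPM in KO at 48 h (log2 0.45, SE 0.12, edgeR adjusted p = 0.00328), while at 24 h it was not called. The LAT1 chain Slc7a5 was higher in TG at both times, at 428, 337, 414 and 348 against 270, 249, 276 and 212 CPM at 24 h (log2 0.60, SE 0.16, edgeR adjusted p = 0.00514) and at 360, 514, 285 and 328 against 277, 264, 189 and 187 CPM at 48 h (log2 0.70, SE 0.16, edgeR adjusted p = 0.000738). The groups overlapped at neither time. Got1 was higher at both times (log2 0.46 and 0.41) and Atf5 at both times (0.58 and 0.45), Slc7a1 and Slc43a1 at 24 h (0.38 and 0.69) and Got2 at 48 h (0.24). Bcat2 was the only gene lower in TG, at 24 h by -0.25 on the log2 scale. Several of these calls were lost when 1 sample was left out. At 24 h this held for Slc7a1 (KO number 3 or 4, TG number 1 or 4) and Slc43a1 (KO number 2, 3 or 4, TG number 1, 2 or 4). It also held for Bcat2 (KO number 2 or 3, TG number 2, 3 or 4). At 48 h it held for Atf5 (KO number 2 or 4, TG number 1 or 2) and Got2 (KO number 1, TG number 2).

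Atf4 itself was at 531, 441, 527 and 488 CPM in TG and 435, 330, 372 and 314 CPM in KO at 24 h, without overlap, and at 511 to 670 and 321 to 632 CPM at 48 h. The log2 differences of 0.45 and 0.40 (SE 0.19 each) did not pass the test (edgeR adjusted p = 0.0792 and 0.1004) and did with the block (0.00176 and 0.00228). Whether the KO or TG effect differed between 48 h and 24 h was tested for each gene: edgeR and DESeq2 called none of the 33 (edgeR called 0.00695% and 0.0765% of all genes), and none had an unadjusted edgeR p under 0.05.

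A list of 5 NK cell markers, some of which T cells also express, ran from 30.6 to 54.8 CPM in TG and from 8.12 to 17.2 CPM in KO at 24 h and overlapped at 48 h, with none of the 5 at 0 in either group; its part in these differences was not tested. The differences between TG and KO depended on the replicate numbers. Within numbers 1 and 2 alone edgeR called 0 genes between TG and KO at 24 h and 7 higher at 48 h; within numbers 3 and 4 alone it called 12 at 24 h and 20 higher at 48 h. Leaving out 1 sample at a time gave 4 to 9 calls at 24 h, with 4 without KO number 4 or TG number 1, and 7 to 21 at 48 h, with 7 without TG number 2 and 21 without KO number 1. KO number 1 was the highest KO sample at 48 h for 25 of the 33 genes.

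The weak stimulus was compared with the very weak one to see whether anti-CD3 dose moves these genes. Averaged over the genotypes, edgeR called no gene at 24 h or at 48 h (0.175% and 0.00729% of all 13709 genes called), DESeq2 called none, and 5 and 3 had an unadjusted edgeR p under 0.05. With the replicate number as a block 5 were higher under the weak stimulus at 24 h, when 7.14% of all genes were called (3.85% higher), and 3 at 48 h (2.66%; 1.64% higher). Under the block Psat1, Mthfd2, Bcat1, Cth and Slc43a1 rose with dose at 24 h and Chac1, Mthfd2 and Cth at 48 h.

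Cth had the largest response to dose. Per library it was at 6.45, 4.41, 1.56 and 2.14 CPM under the very weak stimulus and at 10.5, 9.56, 3.53 and 6.08 CPM under the weak one in WT numbers 1 to 4 at 24 h, so each number was higher under the weak stimulus. At 48 h the values were 66.9, 26.5, 9.52 and 24.0 CPM and 93.5, 48.7, 27.1 and 40.8 CPM. The 12 pairs of libraries of the same genotype and number all rose at both times, by a median log2 ratio of 1.15 (0.28 to 1.57) and 0.84 (0.36 to 1.51). The averaged log2 difference was 1.02 at 24 h (SE 0.31, edgeR adjusted p = 0.113; blocked 1.10, SE 0.15, edgeR adjusted p = 1.69e-05).

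Mthfd2, the mitochondrial folate dehydrogenase, was higher in 12 of 12 pairs at both times by a smaller median log2 ratio of 0.29 and 0.20. At 48 h Asns, Trib3 and Chac1 were also higher in all 12 pairs, by median log2 ratios of 0.52, 0.38 and 0.77. All 12 pairs were higher for 4 of the 33 genes at 24 h and 6 at 48 h, against 1.93% and 1.35% of all 14384 genes. Some members went the other way. Ddit3 was higher in 1 of 12 pairs at 24 h (median log2 ratio -0.43) and in 10 at 48 h (0.28). Shmt1 was higher in 12 of 12 pairs at 24 h (0.12) and in 1 at 48 h (-0.11). Slc7a11 and Slc38a2 at 24 h and Mthfd1l at 48 h were higher in 2 of 12 pairs. Atf4 itself differed by a log2 value of 0.09 at each time and was not called with or without the block.

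**Figure D5:**
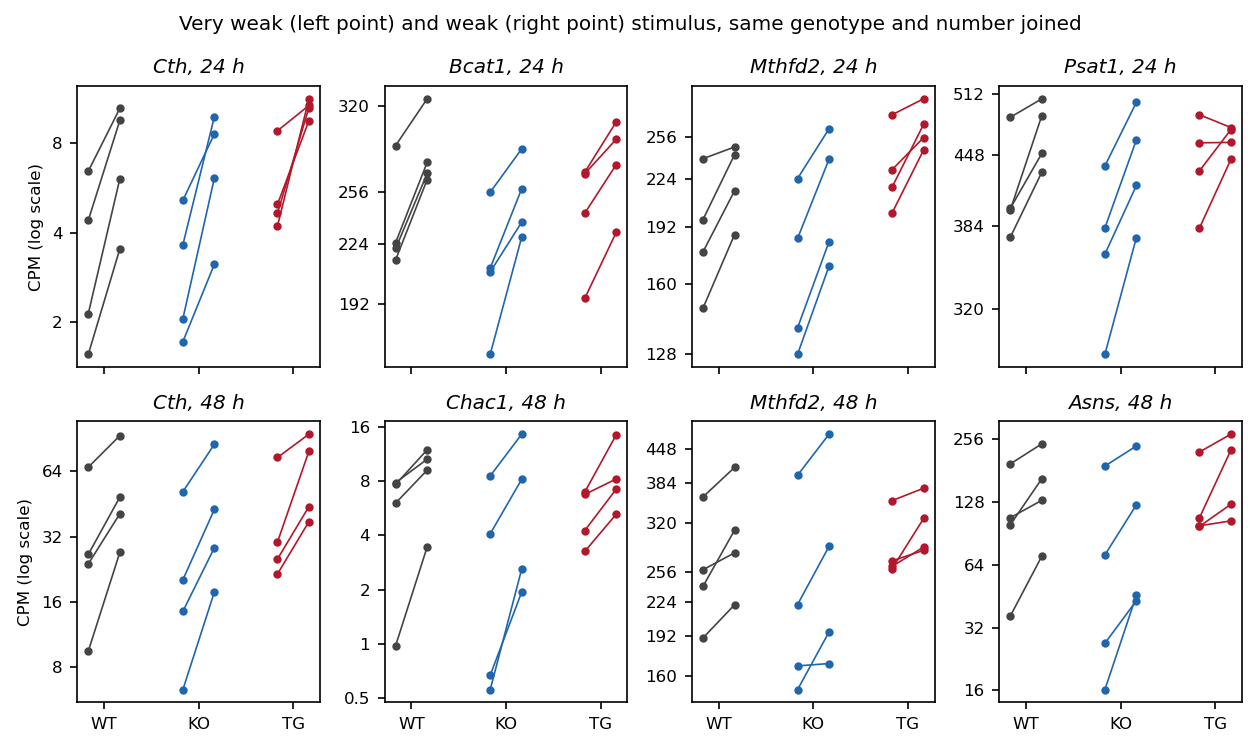
CPM per library (log scale) under the very weak (left point of each line) and weak (right point) stimulus for 4 genes at 24 h (top) and 4 at 48 h (bottom), with libraries of the same genotype (WT grey, KO blue, TG red) and number joined. Every line for Cth, Mthfd2 and Bcat1 at 24 h and for Cth, Chac1, Mthfd2 and Asns at 48 h goes up, whereas a line of Psat1 at 24 h goes down, as 11 of its 12 pairs rose.

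Other genes of the same pathways, from lists of related genes, were set beside the 33. Of all genes, 77.4% were called at 24 h against naive cells (38.3% higher, 39.1% lower), 41% from 24 h to 48 h (21.2% higher, 19.8% lower) and 39.3% between TG and KO at 48 h (19.9% higher, 19.5% lower), and the counts of each list are to be read against these shares. All 19 of 20 listed cytosolic aminoacyl-tRNA synthetases that were found, enzymes that load amino acids onto tRNA, were higher in WT cells at 24 h than in naive cells, with a median log2 difference of 1.77, and from 24 h to 48 h 1, Sars, was higher and 5 lower. The fall with the smallest adjusted p was that of Kars, from 565 ± 40.3 to 420 ± 19.6 CPM (edgeR adjusted p = 0.000495). Between TG and KO at 48 h 11 of the 19 were higher in TG and none lower, against 19.9% higher and 19.5% lower of all genes, among them Hars at 239 ± 16.2 against 175 ± 20.03 CPM.

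Of the 20 tested eIF2 kinase and stress response genes, 10 rose and 5 fell by 24 h, a called share near the 77.4% of all genes, and 12 rose and 1 fell from 24 h to 48 h, when 21.2% of all genes rose. The secreted glycoprotein Stc2 rose from 1.58 ± 0.32 to 28.4 ± 2.06 CPM (edgeR adjusted p = 4.75e-13), the lipoprotein receptor Vldlr from 0.18 ± 0.14 to 26.1 ± 11.6 CPM and the translation inhibitor Eif4ebp1 from 29.5 ± 0.65 to 102 ± 35.7 CPM in those last 24 h. Ppp1r15a, which directs the phosphatase that reverses eIF2 phosphorylation, fell from 835 ± 169 CPM in naive cells to 57.8 ± 10.97 CPM at 24 h. Between TG and KO at 48 h 7 of these genes were higher and 1 lower in TG: Stc2 was at 37.7 ± 8.93 against 12.8 ± 3.82 CPM, and the interferon-induced kinase Eif2ak2 at 49.6 ± 11.99 against 187 ± 138 CPM.

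Of 19 other folate and glycine genes 10 rose and 5 fell by 24 h, again near the 77.4% of all genes, and 5 rose and 7 fell from 24 h to 48 h. Tyms, which makes thymidylate with a folate cofactor, went from 6.52 ± 0.52 to 192 ± 12.8 CPM by 24 h. The folate carrier Slc19a1 fell from 187 ± 19.0 to 113 ± 6.97 CPM between 24 h and 48 h, while the mitochondrial Aldh1l2 rose from 0.18 ± 0.08 to 6.76 ± 4.36 CPM. Between TG and KO at 48 h 5 of these were higher and 3 lower, near the 39.3% called of all genes.

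Of the 13 methionine cycle and polyamine genes 11 rose and 2 fell by 24 h, and from then to 48 h 1 rose and 6 fell. Spermidine synthase, Srm, led the fall from 451 ± 58.6 to 213 ± 21.6 CPM. Of the 10 glutathione genes 7 rose and 1 fell by 24 h, also near the share of all genes called, and 2 rose and 5 fell thereafter; of the 13 tested glutamine, proline and arginine genes 8 rose and 3 fell, then 2 rose and 5 fell. The 21 tested other amino acid transporters had 7 higher and 9 lower at 24 h, a share and a split near those of all genes (77.4% called), and from 24 h to 48 h 6 rose and 1 fell. The glutamate carrier Slc1a2 rose from 1.39 ± 0.24 to 10.6 ± 2.82 CPM in WT cells, and at 48 h it stood at 19.6 ± 5.21 CPM in TG and 5.44 ± 2.82 CPM in KO.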

How the data were processed

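The authors deposited whole-number counts of reads per gene, one table of exonic counts and one of intronic counts, with no normalization in the values. Per the submitters' processing notes, the tools were STAR 2.5.2a, edgeR 3.24.3, R 3.5 and FastQC 0.11.5, with the build mm10. Which counter, annotation and strand setting made the counts is not given, so genes that overlap cannot be told apart. In 14.1% of values the intronic count was above the other one, which was therefore taken as exonic. The deposited tables also list each gene's length. Gene identifiers were matched to RefSeq (23968) or GENCODE (7) symbols and 53 of 24028 had no name.

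The counts were tested with the quasi-likelihood test of edgeR 4.0.16 in R 4.3.3 (TMM factors 0.951 to 1.07, filterByExpr) in 1 fit of 34 samples with 25 residual degrees of freedom, in which very weak and weak libraries of a number were summed. Dose was tested in a fit of the 58 libraries (13709 genes) and exonic against intronic change in a fit of 68 columns (12077 genes). The block for dose was genotype and replicate number together. Scripts were tested on simulated data. DESeq2 1.42.0, other size factors, no filter, each stimulus alone, numbers 1 and 2 or 3 and 4 alone, a replicate block and leaving out each replicate were the alternatives. Members and lists were chosen with earlier results of these data known. Genes given in full were the called members with a mean of at least 5 CPM in a compared group, at most 8 in each direction. Every called member was given where 5 or fewer were called, and up to 4 genes of each other list by adjusted p. Cbs between TG and KO at 48 h and Slc7a11 between 24 h and 48 h in WT cells were also given in full. Their means were under 5 CPM.

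The labels do not say that a number marks shared mice. Same-numbered samples deviated from their group means together (every correlation over 0.1) in the comparisons of stimulated genotypes and of stimulus strengths, where the numbers were taken to pair the samples. Not every correlation passed 0.1 in the comparisons with naive cells, between naive genotypes or between 48 h and 24 h. There they ran from -0.03 to 0.11, from -0.04 to 0.32 and from 0.08 to 0.19.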

Additional observations from a re-analysis of the deposited data

Results flagged for a closer look

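In 13 of the 199 sets of 4 samples of a gene and group, the highest or lowest sample lay farther from the nearest other than Dixon's 95% limit for 4 values allows; chance flags about 1 in 20 such sets. WT number 1 at 24 h was high in Shmt1 (316 CPM against 254 to 261 in the others), Mthfd1 (505 against 436 to 443) and Bcat1 (314 against 246 to 257). Naive TG number 4 was high in Shmt2 (115 against 94.2 to 94.6), Aldh18a1 (99.4 against 71.0 to 75.3) and Slc7a1 (100.2 against 76.3 to 78.7). At 48 h in WT, number 2 was high in Bcat2 (79.6 CPM against 63.8 to 64.3) and low in Slc1a5 (436 against 469 to 475), and number 1 was high in Slc38a2 (251 against 175 to 187). In KO cells, number 4 was low in Shmt2 at 24 h (456 against 534 to 549) and high in Slc38a1 at 48 h (386 against 325 to 333), and number 1 was high in Got1 at 48 h (172 against 136 to 138). In TG cells number 3 was high in Shmt1 at 48 h (195 against 161 to 167).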

How the results depend on the processing

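No called gene changed direction under any alternative run: of 1793 values of the 138 calls of a gene in a comparison, 1624 stayed on the same side of the threshold and 169 lost it, which touched 42 calls. For KO against WT at 24 h the single call was lost (0 called) in the weak libraries alone and within numbers 1 and 2. At 48 h it was lost (0) with relative log expression factors, with no filter, in the very weak libraries alone and within numbers 1 and 2, and rose to 3 with DESeq2 and 4 within numbers 3 and 4. Leaving out 1 sample gave 0 to 1 calls in the comparison of KO with WT at 24 h and 0 to 9 at 48 h, 1 to 6 for naive TG against WT, 4 to 9 and 7 to 21 for TG against KO, and 0 to 2 and 0 to 1 for dose. DESeq2 called 1 gene for TG against WT at 48 h. For TG against KO the calls were 0 at 24 h and 7 at 48 h within numbers 1 and 2, and 20 at 48 h within numbers 3 and 4. The cause of these shifts was not tested. The replicate block gave 7 calls for KO against WT and 4 for TG against WT at 48 h, 13 and 19 for TG against KO, 5 and 3 for dose, and 8 for naive TG against WT, where the numbers share only a number; it moved no other count by more than 1.5 times. In WT cells the block, with shared numbers only, gave 23 in place of 16 calls between 48 h and 24 h. Cbs, Slc7a11 and Chac1 rest on few counts, and their differences are measured with less precision than those of the abundant enzymes.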
